A study of Mus musculus with 16 samples.

Results

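Hepatic inflammatory cells, a leukocyte-rich fraction of the liver, were set against whole liver in mice that had received stem cells, to describe what the fraction held once the cells were given. The comparison used the arrays titled as hepatic inflammatory cells or as liver with adipose tissue derived stem cell (ADSC) treatment, numbers 7 to 10, which are 8 of the 16 arrays of the series. Each of the 2 groups had 4 arrays, and the other 8 arrays, numbers 11 to 14, were the same sample types after phosphate-buffered saline (PBS). All mice were female C57Bl/6 animals, made cirrhotic by 40 weeks on a high-fat diet of the atherogenic kind, and their age is not given in the labels. The treated mice received 2 injections of 100000 ADSC through the splenic subcapsule, and samples were taken 2 weeks after the last one. The ADSC were cultured from inguinal fat of mice with a GFP transgene, and no probe for GFP was looked at. RNA extraction is described in the labels for cells infiltrating a tumor and for blood, so the way in which the hepatic fraction was prepared is not known from them. The labels do not say whether each array stands for its own animal; the p-values below therefore measure only the spread between samples, which may be technical.

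The liver holds hepatocytes, which make plasma proteins, bile acids, urea and glucose and break down foreign compounds, beside endothelial cells, bile duct cells, stellate cells and resident macrophages called Kupffer cells. In cirrhosis, stellate cells lay down collagen, and lymphocytes, neutrophils and monocytes enter the tissue from blood. A fraction enriched in such leukocytes is compared with whole liver to see which transcripts come with it and which stay behind, and fresh cells taken from a tissue often carry transcripts of the stress and early response genes as well. In RNA from a mixture, fewer cells of a type and less RNA per cell cannot be told apart.

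Levels are log2 signals relative to the 75th percentile of the array, and a difference is the mean of the inflammatory cells minus the mean of the liver, given with its standard error (SE). A gene was called at a Benjamini-Hochberg adjusted p under 0.05 in limma, over 20051 genes tested. The calls covered 16072 genes (80.2%). Of these, 8795 were higher in the inflammatory cells (43.9%) and 7277 were lower (36.3%), and the median difference over all tested genes was 0.20. Differences of at least 4-fold were found for 4903 genes that were higher (24.5%) and 2621 that were lower (13.1%). The 4 inflammatory cell arrays all lay above the 4 liver arrays for 8300 genes (41.4%) and all below them for 6934 genes (34.6%). The higher genes were 54.7% of those called, and 38.5% when each array was centred on its median in place of the 75th percentile, which moved the median of all genes to -0.57. Genes entered the test if at least 4 of the 8 arrays showed them well above background, so a gene seen in 1 sample type only had to differ, and the counts below are read against these shares.

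The labels were first checked against defining markers. Ptprc, the common leukocyte antigen CD45, had levels of 5.29, 4.65, 4.99 and 4.99 in the inflammatory cells and 2.41, 2.26, 1.82 and 2.12 in liver, a difference of 2.83 ± 0.19 (limma adjusted p = 8.5e-07). Alb, the plasma protein albumin, had levels of 5.44, 6.77, 5.74 and 5.94 against 9.31, 9.58, 9.73 and 9.70, a difference of -3.61 ± 0.27 (limma adjusted p = 1.7e-06). Neither pair of groups overlapped, and albumin was still well above background on all 4 inflammatory cell arrays. None of the 4 Y-linked genes on the array passed the background filter; the label is female. The arrays of the fraction varied more among themselves than those of liver, with a median SD per gene of 0.33 against 0.21 and correlations of 0.920 to 0.972 against 0.979 to 0.986, and arrays of different sample types correlated at 0.571 to 0.636. Between 52.3% and 66.3% of spots were well above background, and the 75th percentile signal ran from 123.8 on inflammatory cell array 8 to 416.1 on liver array 7. Inflammatory cells lay at positions 3 and 4 of a slide and liver at positions 1 and 2, so sample type and position cannot be told apart. Liver arrays 8 and 10 were on slide 1 and scan day 1. Inflammatory cell arrays 9 and 10 were on slide 4 and scan day 3. No array of the other group shared those slides or days, so slide and scan day were partly bound to sample type. Within the slides that carried both sample types, with 1 array of each, 15915 and 15909 of the 16072 called genes had the same sign as in all arrays (99.1% and 99.0%), and on the scan day that held 2 of each, 16061 did. The genes were called on all 8 arrays, these among them, so the agreement was largely built in and is no independent check.

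**Figure D1:**
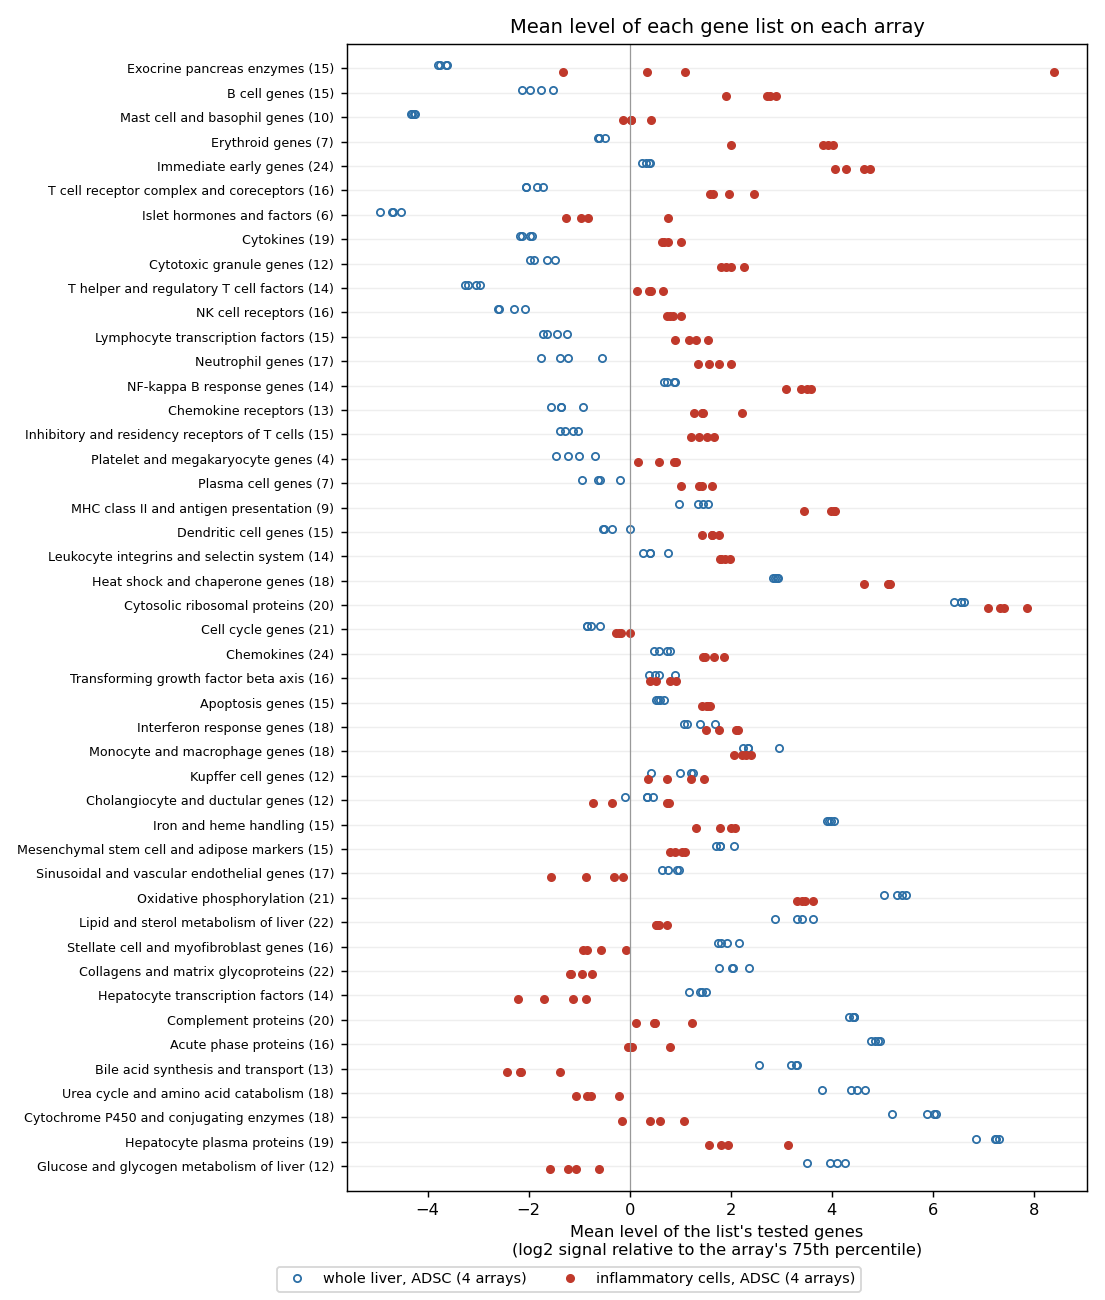
Mean level of the tested genes of each of 46 gene lists on each array, on the log2 scale after subtraction of each array's 75th percentile; filled points are the 4 inflammatory cell arrays, open points the 4 liver arrays, and the number of genes is in brackets. Lists are ordered by their median difference, from the exocrine pancreas at the top (6.74) to glucose and glycogen metabolism at the bottom (-5.94).

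Promoters are shown here for members of 3 gene groups. Heat shock genes were mostly higher in the fraction, tested immediate early genes were all higher, and hepatocyte plasma proteins were lower. A stretch of Tnfaip3, a target of NF-kappa B, is shown further below. The members shown were picked by hand with their values known. The sequences are RefSeq windows (GRCm38.p6) matched by symbol, which were found for 9861 of the 12318 tested genes that have a symbol. Capitals mark the matches of the motif named, and all are written 5′ to 3′ on the strand of the gene. The first set carries the heat shock repeat, searched as GAANNTTC or TTCNNGAA on both strands, 2 inverted units of the element bound by heat shock factors. Whole upstream stretch of Hspa1a, chr17:34972157-34972406, minus strand, and the stretches around the matches of Hspa1b, chr17:34959320-34959357, minus strand, and Hspb1, chr5:135887787-135887844, plus strand:
Hspa1a: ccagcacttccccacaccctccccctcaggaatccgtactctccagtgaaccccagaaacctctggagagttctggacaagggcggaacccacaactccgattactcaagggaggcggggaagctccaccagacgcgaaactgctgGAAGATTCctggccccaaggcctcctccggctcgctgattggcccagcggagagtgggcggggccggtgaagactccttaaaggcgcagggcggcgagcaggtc
Hspa1b: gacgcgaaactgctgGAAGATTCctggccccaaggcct
Hspb1: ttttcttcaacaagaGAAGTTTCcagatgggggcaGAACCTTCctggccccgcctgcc
The windows of Hspa1a and Hspa1b are identical at 296 of 300 bases, and both are counted in the share that follows. The heat shock repeat occurred in the windows of 10 of the 14 tested heat shock and chaperone genes that have a window (71.4%), against 17.0% of all 27025 genes with a window, 16.0% of those at least 4-fold higher and 14.6% of those at least 4-fold lower. The window of Hspb8, a lower member of the list, carries the repeat, and that of Dnajb1, a higher member, does not.

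The second set carries the core letters of the cyclic AMP response element, TGACG on either strand, in immediate early genes. The stretches shown are those of Fos, chr12:85473746-85473843, plus strand, Nr4a1, chr15:101266598-101266825, plus strand, and Atf3, chr1:191183334-191183355, minus strand:
Fos: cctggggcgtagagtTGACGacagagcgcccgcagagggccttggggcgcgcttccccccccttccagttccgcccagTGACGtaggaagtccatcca
Nr4a1: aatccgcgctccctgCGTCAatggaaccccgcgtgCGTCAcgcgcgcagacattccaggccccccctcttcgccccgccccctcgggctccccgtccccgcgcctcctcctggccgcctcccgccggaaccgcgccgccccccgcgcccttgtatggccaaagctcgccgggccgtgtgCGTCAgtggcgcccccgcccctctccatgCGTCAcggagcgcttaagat
Atf3: ctattaatagcattaCGTCAgc
These letters were present in 12 of 20 immediate early genes with a window (60.0%), against 23.0% of all genes with a window and 32.8% of those tested. They were also present in 8 of 14 heat shock genes with a window (57.1%), in 22.0% of all genes at least 4-fold higher and in 25.6% of those at least 4-fold lower.

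The third set belongs to the plasma proteins of hepatocytes, with the C/EBP motif TTGCNNAA on either strand; C/EBP factors are transcription factors of liver and fat. The whole upstream stretch of Alb, chr5:90460620-90460869, plus strand, is given with the matches in Fgb, chr3:83049921-83049958, minus strand, and Hpx, chr7:105600294-105600331, minus strand:
Alb: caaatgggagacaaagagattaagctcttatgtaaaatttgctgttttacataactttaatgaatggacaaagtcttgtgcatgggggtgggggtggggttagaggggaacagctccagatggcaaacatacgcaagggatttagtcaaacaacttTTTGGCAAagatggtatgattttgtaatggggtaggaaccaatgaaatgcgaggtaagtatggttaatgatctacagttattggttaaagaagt
Fgb: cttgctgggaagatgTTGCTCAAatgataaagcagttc
Hpx: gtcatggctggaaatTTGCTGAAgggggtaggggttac
The motif was found in 9 of 14 plasma protein genes with a window (64.3%), against 12.2% of all genes with a window. Over all genes at least 4-fold lower in the fraction the share was 14.6%, and over those at least 4-fold higher 12.1%. The motifs were chosen with the windows in view, and a match is a stretch of letters and not a measured binding site.

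Heat shock genes gave the largest differences of the comparison. The list of heat shock and chaperone genes, whose products refold damaged proteins, had 14 of 18 tested members higher and 2 lower, with a median difference of 1.43. Hspa1b, an inducible cytosolic HSP70, had levels of 7.75, 7.47, 8.20 and 8.13 in inflammatory cells 7 to 10 and -2.31, -2.43, -2.35 and -2.02 in liver 7 to 10, a difference of 10.17 ± 0.20 (limma adjusted p = 1.49e-08). Its near-identical neighbour Hspa1a had levels of 9.62, 9.87, 10.01 and 10.00 against 0.06, -0.05, -0.51 and 0.14, a difference of 9.97 ± 0.18 (limma adjusted p = 1.49e-08). The 4 arrays of each side lay close together for both genes, and a probe for 1 of them may pick up the transcript of the other. Among members outside the naming rule, the HSP40 cofactor Dnajb1 differed by 4.04 ± 0.21, Hsph1 of the HSP110 family by 3.58 ± 0.21 and the small heat shock protein Hspb1 by 2.93 ± 0.18. The mitochondrial chaperonins Hspd1 and Hspe1, whose windows also carry the repeat, did not pass, at -0.27 ± 0.30 and 0.12 ± 0.29. The members against the trend were Hspb8, a small heat shock protein of muscle and other tissues, at -4.54 ± 0.26, and Hsp90b1, the chaperone GRP94 of the endoplasmic reticulum, at -1.03 ± 0.17.

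All 24 tested immediate early genes were higher in the fraction, 23 of them at least 4-fold, and their median difference was 4.26. These genes encode transcription factors and feedback regulators that are transcribed within minutes of a stimulus. The nuclear receptor Nr4a1 had levels of 7.60, 8.31, 8.71 and 8.68 in the fraction and 1.18, 1.36, 1.44 and 1.15 in liver, a difference of 7.04 ± 0.25 (limma adjusted p = 6.4e-08). Fos, a subunit of the AP-1 factor, had levels of 3.61, 5.09, 5.35 and 5.55 against -1.74, -1.76, -1.78 and -1.69, a difference of 6.64 ± 0.38 (limma adjusted p = 3.5e-07). Its lowest value in the fraction, on array 7, was still over 5 log2 units above every liver array. Nr4a2, a close relative of Nr4a1, differed by 6.46 ± 0.16. The stress factor Atf3 was named after its values were seen, and it differed by 4.50 ± 0.19. All 24 calls were made again with any 1 of the 8 arrays left out, and the list median was 3.93 and 3.63 within the slides that held both sample types.

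**Figure D2:**
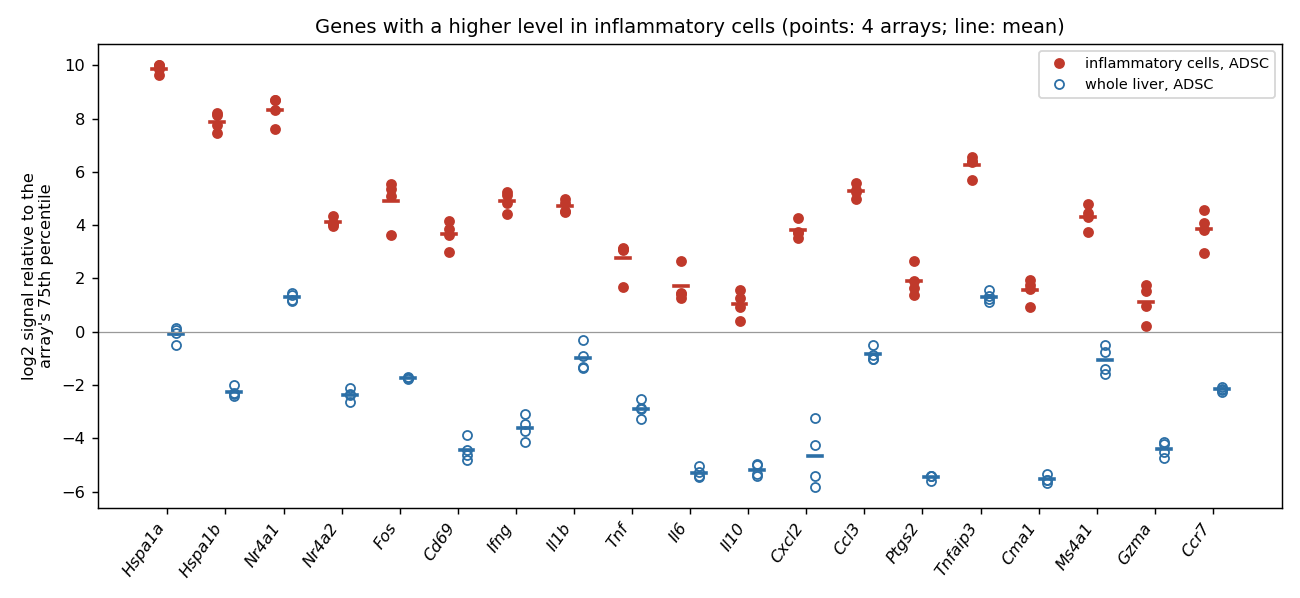
Levels of 19 genes on each array, on the same log2 scale, with filled points for the 4 inflammatory cell arrays, open points for the 4 liver arrays and a line at each mean. For every gene shown, the 4 inflammatory cell arrays lie above the 4 liver arrays; levels of different genes are not comparable.

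Targets of NF-kappa B, a factor activated by cytokines and microbial products, behaved likewise: 12 of 14 tested members were higher and 1 was lower, with a median difference of 2.80. Ptgs2, the inducible enzyme of prostaglandin synthesis, stayed under the background criterion in liver and was at least 41.6-fold higher in the fraction, on levels of 1.36, 1.65, 1.92 and 2.67. Such a bound sets the mean of the brighter group against the lowest signals that count as above background on the other arrays. Tnfaip3, the inhibitor A20, had levels of 6.54, 5.70, 6.42 and 6.35 against 1.57, 1.22, 1.33 and 1.11, and differed by 4.94 ± 0.21. Its promoter carries the NF-kappa B motif, here on the opposite strand, just before the start, chr10:19015411-19015437, minus strand:
Tnfaip3: actggaatttccatcGGAAATCCCCct
The motif was present in 4 of 11 genes of the list with a window (36.4%), against 1.89% of all genes with a window. Nfkbiz, a nuclear regulator of the pathway, differed by 4.68 ± 0.20. The lower member was Sod2, the mitochondrial superoxide dismutase, with levels of 4.35, 4.05, 3.86 and 4.09 against 5.64, 6.03, 6.24 and 6.12 (-1.92 ± 0.18).

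Cytokines were also mostly higher, with 14 of 19 tested members higher and 3 lower and a median of 3.85, and of 0.69 over the members above background on every array. Ifng, the interferon of T and NK cells, had levels of 4.43, 4.82, 5.24 and 5.12 in the fraction and -3.09, -3.74, -3.45 and -4.12 in liver, and its difference of 8.51 ± 0.26 was exceeded, among genes measured in both groups, by Hspa1b and Hspa1a alone (limma adjusted p = 3.9e-08). Il1b and Tnf, made by activated myeloid cells, differed by 5.69 ± 0.25 and 5.64 ± 0.34. For Il6, Osm and Il10 no liver array reached the background criterion, and the fraction was at least 36.3-fold, 21.4-fold and 23.1-fold higher. Il17a, a cytokine of lymphocytes that recruits neutrophils, was at least 18.9-fold higher, on uneven levels of 2.47, -1.15, 0.78 and 0.93. The 3 lower members were Il33, an alarm signal stored in tissue cells, at -2.93 ± 0.49, the macrophage growth factor Csf1 at -0.69 ± 0.25, and Il18 at -0.65 ± 0.15. The call of Csf1 was lost when liver array 7, 8 or 10 or inflammatory cell array 9 was left out, at adjusted p values of 0.0541 to 0.0738.

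Chemokines went both ways in shares near those of all genes tested, while their receptors were mostly higher. Of 24 tested chemokines 12 were higher and 8 lower (median 0.44, and -0.33 with median centring). Of all genes tested 43.9% were higher and 36.3% lower. Of 13 tested receptors 11 were higher and 0 lower (median 2.78). Cxcl2, which attracts neutrophils, had levels of 3.74, 3.70, 3.51 and 4.27 in the fraction and -4.24, -5.82, -5.41 and -3.24 in liver, a difference of 8.48 ± 0.51 (limma adjusted p = 4.5e-07). Its liver levels were dim, so the size of this difference is less certain than its direction. Ccl3, an inflammatory chemokine of macrophages and lymphocytes, differed by 6.12 ± 0.19. Cxcl12, the retention factor made by stromal cells, went the other way, with levels of -3.19, 0.37, -2.16 and -1.18 in the fraction and 5.72, 5.98, 5.55 and 5.86 in liver, a difference of -7.32 ± 0.63 (limma adjusted p = 4.1e-06). Its 4 values in the fraction spread over more than 3 log2 units, with the highest on array 8, and the difference was -7.96 without that array. Its receptor Cxcr4, named here for that pairing after its values were seen, had levels of 4.08, 2.32, 3.25 and 3.19 against -0.31, -0.76, -0.92 and -0.93, so ligand and receptor lay on opposite sides.

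The other chemokines that were lower in the fraction were Cx3cl1, the membrane-bound ligand of Cx3cr1, at -3.48 ± 0.33, Cxcl14 at -2.99 ± 0.25, Ccl27a at -2.84 ± 0.19, Ccl20, the ligand of Ccr6, at -1.97 ± 0.54, Cxcl9 at -1.71 ± 0.19, Ccl9 at -1.17 ± 0.18 and Cxcl16 at -0.61 ± 0.19. The ranges of Ccl20 overlapped between the groups, and its call was lost with scan day or slide in the fit, at -0.85. Among receptors, Ccr7, which guides cells to lymph nodes, had levels of 4.58, 2.96, 4.07 and 3.80 against -2.09, -2.14, -2.26 and -2.18, a difference of 6.02 ± 0.30. Cxcr5 of B cells and follicular T cells differed by 5.99 ± 0.57 and Ccr6 by 4.56 ± 0.32. All 3 receptors were highest on inflammatory cell array 7 and lowest on array 8. Ccr2, the receptor of inflammatory monocytes, differed by 1.77 ± 0.15, and Xcr1, found on cross-presenting dendritic cells, by 1.42 ± 0.41.

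**Figure D3:**
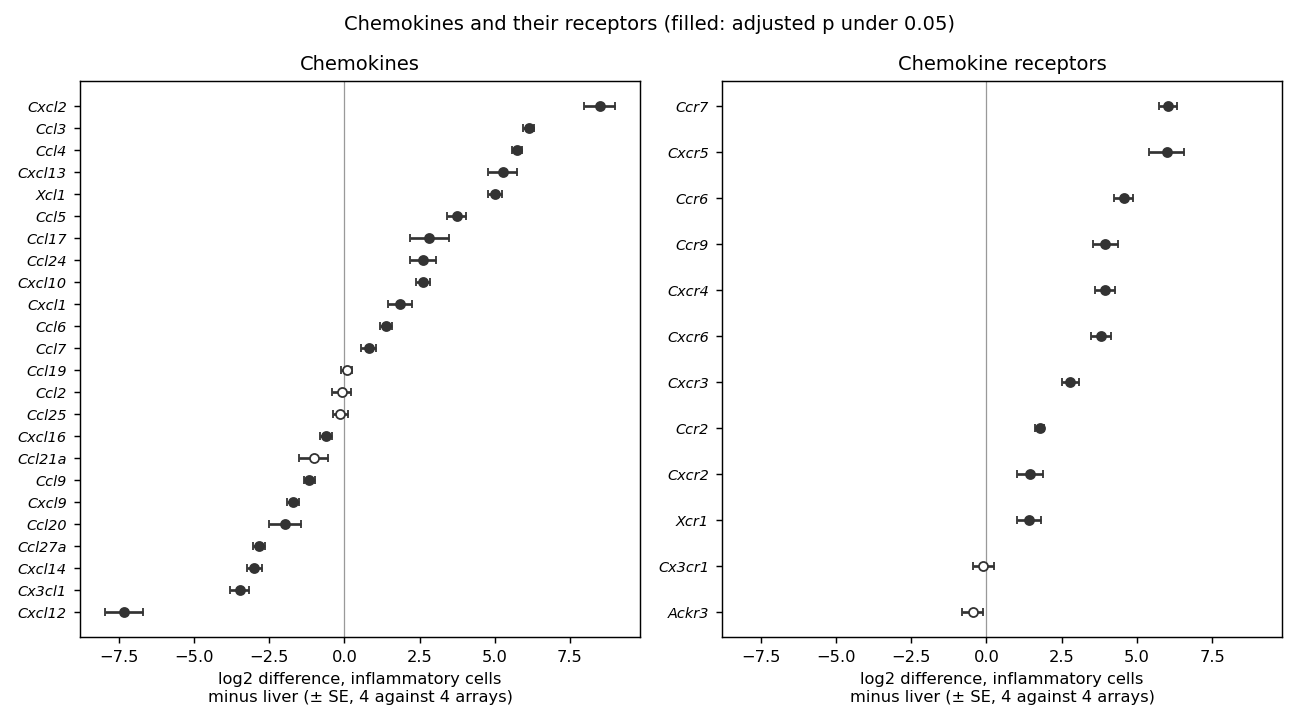
Log2 difference, inflammatory cells minus liver, of 24 chemokines and 12 chemokine receptors with bars of 1 SE (4 against 4 arrays); filled points have an adjusted p under 0.05. Chemokines run from -7.32 (Cxcl12) to 8.48 (Cxcl2), and 10 of the 12 receptors plotted lie to the right of 0 and passed.

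T and NK cell transcripts stood high in the fraction. All 16 tested genes of the T cell receptor complex and its coreceptors were higher (median 3.96), as were all 12 cytotoxic granule genes (3.73), 15 of 16 NK cell receptors (3.35) and 13 of 14 T helper and regulatory T cell genes (3.71). Above background in both groups were 13 of the 16, 10 of the 12, 9 of the 16 and 7 of the 14, in that order. Cd69, the early activation antigen, stayed under the background criterion in liver and was at least 141-fold higher in the fraction, on levels of 3.62, 2.99, 4.15 and 3.87. This was the largest bound among the higher genes. Icos, a costimulatory receptor, had levels of 3.59, 1.29, 2.14 and 1.94 against -2.80, -3.05, -3.40 and -3.07, a difference of 5.32 ± 0.42. The signalling adaptor Lat differed by 4.91 ± 0.22. Among cytotoxic genes, the death ligand Fasl differed by 5.54 ± 0.48, the granzyme Gzmb by 4.46 ± 0.27 and the pore protein Prf1 by 3.95 ± 0.20, and Gzma was at least 24.2-fold higher.

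NK cell genes followed the same direction, with Il2rb at 4.86 ± 0.37, Klra7 at 4.56 ± 0.20 and the activating receptor Ncr1 at least 4.95-fold higher; probes of the Klra family may pick up several of its members. Of 15 lymphocyte transcription factors 13 were higher and 0 lower (median 3.22), led by the chromatin organiser Satb1 at 5.57 ± 0.46, whose levels were 4.56, 1.94, 3.10 and 3.12 on inflammatory cell arrays 7 to 10. Array 7 had the highest level of Icos, Fasl, Il2rb, Cxcr5 and Satb1 alike. Cd4 was at least 2.35-fold higher and Cd3e differed by 1.92 ± 0.18, whereas Foxp3, the factor of regulatory T cells, was not well above background on any of the 8 arrays and was not tested. Of 15 inhibitory and residency receptors 12 were higher and 2 lower. The lower ones were Itga1 (-2.54 ± 0.25) and Klf2 (-0.86 ± 0.16), and for each a second probe of the same gene had the opposite sign, at 1.74 and 4.68.

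B cell genes had a larger median than the T cell lists. Of 15 tested B cell genes 14 were higher and 0 lower, with a median of 4.74. Ms4a1, which encodes the B cell antigen CD20, had levels of 4.79, 3.73, 4.30 and 4.45 against -0.50, -0.75, -1.58 and -1.39, a difference of 5.37 ± 0.30, with no overlap of the groups. Fcer2a and the BAFF receptor Tnfrsf13c differed by 5.91 ± 0.28 and 5.86 ± 0.38. Of 7 plasma cell genes 5 were higher, among them Mzb1 (5.12 ± 0.29) and Jchain (3.61 ± 0.54), and Irf4 was at least 29.2-fold higher. The plasma cell genes Sdc1 (-3.52 ± 0.17) and Xbp1 (-1.32 ± 0.22) were lower, and hepatocytes express both.

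Antigen-presenting cells were represented as well. All 9 tested MHC class II genes were higher (median 1.60, and 7 of 9 with median centring). The accessory chain H2-Oa had levels of 3.54, 2.77, 3.63 and 3.41 against -0.66, -0.42, -0.76 and -0.69, H2-DMb2 differed by 3.96 ± 0.26, and H2-Ob was at least 23.4-fold higher; these 3 genes act in peptide loading. Of 15 dendritic cell genes 13 were higher and 1 lower (median 1.59, and 8 and 2 with median centring). Cd83, a marker of mature dendritic cells and activated B cells, differed by 4.17 ± 0.26 and Ccr9 by 3.95 ± 0.41. The lower one was Bst2, an interferon-induced antigen of plasmacytoid dendritic cells, at -2.15 ± 0.18, and Siglech, the other plasmacytoid marker looked for, was above background on 2 and 1 arrays and was not tested.

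Granulocyte genes were next. Of 17 neutrophil genes 16 were higher and 1 was lower (median 2.90). The antimicrobial peptide Camp had levels of 2.70, 3.04, 2.08 and 1.59 in the fraction and -0.39, -2.19, -2.79 and -3.40 in liver, a difference of 4.55 ± 0.60, and 5.15 without liver array 7. Ltf, the iron-binding lactoferrin, differed by 4.34 ± 0.44, Ngp by 4.29 ± 0.48 and the calprotectin subunit S100a8 by 3.91 ± 0.37. The primary granule elastase Elane was above background on 1 array of the fraction and on 0 of liver and was not tested. Lcn2, a neutrophil granule protein that hepatocytes also secrete, ran against the list with levels of 1.91, 1.79, 1.18 and 1.29 against 4.53, 4.11, 3.36 and 4.19 (-2.51 ± 0.28).

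Mast cell and basophil genes were mostly not seen on the liver arrays. Of 10 tested members 9 were higher (median 4.38), and only 2 were above background in both groups. A member seen in the fraction alone was bound to be higher, so the count follows in part from the filter. The islet genes below had 1 of 6 above background in both groups. The mast cell chymase Cma1 had levels of 1.74, 1.60, 0.93 and 1.95 in the fraction, was not well above background in liver and was at least 32.8-fold higher. The protease Cpa3 and the chymase Mcpt4 were at least 16.5-fold and 19.2-fold higher. The tenth member, the receptor Kit, did not pass (0.34 ± 0.17), and it passed without inflammatory cell array 7 or 8, when 10 of 10 were called.

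Macrophage genes did not share a direction. Among 18 tested genes of monocytes and macrophages, 4 were higher and 8 lower, with a median of -0.23 that turned to 0.15 when the percentile was taken over probes detected on all arrays. With median centring 4 were higher and 13 lower (median -1.01). The 4 higher genes were Ly6c1 (2.73 ± 0.32, with a near-identical neighbour in Ly6c2), the endotoxin coreceptor Cd14 (1.92 ± 0.29), Ccr2 and the integrin Itgam (1.48 ± 0.28). Which cells of the fraction carried them was not tested. Among the lower genes, Gpnmb, found on lipid-laden macrophages, had levels of 0.29, 0.73, 0.42 and 0.38 against 5.01, 4.26, 3.88 and 3.83, a difference of -3.79 ± 0.26, and Spp1, which encodes osteopontin and is also made by bile duct cells, differed by -2.41 ± 0.40. The pan-macrophage gene Adgre1, which encodes F4/80, was lower by its brightest probe (-0.80 ± 0.22) and not by the mean of its probes (0.24).

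Kupffer cell genes also went both ways, with 4 of 12 higher and 5 lower, against 43.9% and 36.3% of all genes tested. Their median was -0.52. The median was -1.01 and -1.26 within the slides that held both sample types, -1.19 with slide or scan day in the fit and -1.29 with median centring. The scavenger receptor Marco had levels of 3.17, 3.64, 4.42 and 4.51 against 1.32, 0.13, 1.00 and 1.31, a difference of 2.99 ± 0.37. Folr2 (2.47 ± 0.46) and the haem-response factor Spic (2.29 ± 0.43) were higher too, and Timd4 was at least 4.15-fold higher. Slc40a1, the iron exporter, was lower at -3.47 ± 0.24. Clec4f, the marker most particular to mouse Kupffer cells, had levels of -2.75, -2.28, 0.36 and 1.59 in the fraction and -0.72, -0.54, 1.57 and 1.50 in liver. Its groups overlapped and the difference of -1.22 ± 0.99 did not pass (limma adjusted p = 0.28), but it was called at -2.94 on scan day 2 alone, chosen after seeing the data, and with slide or scan day in the fit. Vsig4 did not pass either (0.29 ± 0.48).

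Genes of hepatocyte function were lower almost without exception. All 19 tested plasma proteins (median -5.24), all 18 cytochrome P450 and conjugating enzymes (-5.17), all 18 genes of urea and amino acid metabolism (-5.15), all 13 of bile acid synthesis and transport (-4.92) and all 12 of glucose and glycogen metabolism (-5.94) were lower in the fraction. Among genes measured in both groups the lowest difference was that of Bhmt2, an enzyme of methionine metabolism, with levels of -5.17, -2.11, -3.43 and -4.44 against 4.01, 4.38, 4.47 and 4.44 (-8.11 ± 0.56, limma adjusted p = 9.9e-07). Its levels in the fraction were dim, which makes the size of the difference less certain than its direction. Abcg5, which exports sterols into bile, differed by -7.67 ± 0.33, the glycogen synthase Gys2 by -7.51 ± 0.49 and the glucokinase regulator Gckr by -7.32 ± 0.34. In 5 genes the fraction was not above background and the bound was largest: Dmgdh of choline breakdown at least 148-fold lower, the urea cycle enzyme Otc at least 145-fold, the vitamin E carrier Ttpa at least 124-fold, Ttc36 at least 102-fold and Sgk2 at least 101-fold.

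Within the plasma proteins, the size of the difference varied. The apolipoprotein Apoa2 had levels of 1.20, 2.78, 1.76 and 1.67 against 7.50, 8.05, 8.27 and 8.24 (-6.16 ± 0.33), while albumin differed by -3.61 ± 0.27. Array 8 had the highest level of Alb, Apoa2, Apob and Apoc3 in the fraction. For Baat, which joins bile acids to amino acids, array 8 stood at -0.62 and the other arrays between -4.94 and -4.50, so that its difference of -7.16 ± 0.85 became -8.19 without array 8. Abcb11, the bile salt export pump, had no such gap and differed by -6.88 ± 0.32. Cyp7a1, the first enzyme of bile acid synthesis, was above background on 3 liver arrays only and was not tested, and Cps1 and Cd8a were not found on the array by symbol.

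Drug metabolism was represented by Cyp4a14 (-6.72 ± 0.57), Cyp2e1 (-6.64 ± 0.41) and Cyp2c29 (-6.50 ± 0.32), whose probes may pick up related family members. Of 16 tested acute phase proteins 15 were lower (median -4.64). Saa2 had levels of -0.35, 0.45, -1.11 and -0.47 against 7.25, 7.26, 6.95 and 7.44, a difference of -7.60 ± 0.30, whereas Saa3, the serum amyloid made outside hepatocytes as well, had levels of 4.37, 3.26, 4.00 and 5.64 against 4.40, 4.39, 4.07 and 4.61 and did not pass (-0.05 ± 0.43). Of 20 complement genes 17 were lower and 1 higher (median -4.51), with C8a at -6.52 ± 0.50 and the mannose-binding lectin Mbl2 at -6.26 ± 0.43. The higher one was Cfp, properdin, which is made by leukocytes (0.93 ± 0.22), and its call was lost with median centring (0.15) and with scan day in the fit (0.47).

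The transcription factors that set hepatocyte identity followed, with 12 of 14 lower and 1 higher (median -3.52). Hnf4a was not well above background in the fraction and was at least 52.9-fold lower by its brightest probe; its other probes differed by 0.34 and -2.76. Foxa2, which opens chromatin at liver genes, differed by -5.40 ± 0.62. In lipid and sterol metabolism 18 of 22 genes were lower and 2 higher (median -2.41). The sterol exporter Abcg5 (-7.67) had the largest difference of the list, while Acaca, the first enzyme of fatty acid synthesis, was higher by its brightest probe (1.49 ± 0.21). The other probes of Acaca differed by 0.02 and 0.42. The other higher gene, Sqle, lost its call under most alternatives and turned to -0.31 with median centring.

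Transcripts of the scar matrix and of the cells that build it were mostly lower in the fraction. All 22 tested collagens and matrix glycoproteins were lower (median -3.26), and 12 of 16 stellate cell genes were lower and 2 higher (median -2.85). The fibrillar collagen Col1a1 had levels of 0.25, 0.70, 0.77 and 0.64 against 4.41, 3.58, 3.56 and 3.61, a difference of -3.20 ± 0.23, and Col3a1 differed by -3.85 ± 0.21 by its brightest probe and 0.11 by the other. Col18a1, which hepatocytes also make, differed by -5.05 ± 0.24. Lum, a small proteoglycan of scar fibroblasts, differed by -6.20 ± 0.38, the growth factor receptor Pdgfrb by -5.50 ± 0.38, and Pdgfra was at least 29.4-fold lower. Acta2, the smooth muscle actin of myofibroblasts, did not pass by its brightest probe, with levels of 2.85, 3.35, 3.25 and 3.41 against 3.18, 3.31, 2.94 and 3.45. The difference was -0.01 ± 0.18 (limma adjusted p = 0.98), and with median centring it was -0.78 and called. The other probe of Acta2 differed by -0.72. The higher members were Thy1, which mouse T cells carry, at 3.59 ± 0.20 and the intermediate filament Vim, common to leukocytes, at 1.29 ± 0.26.

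Mesenchymal stem cell and adipose markers were examined because of the treatment. Of 15 tested 5 were higher and 9 lower (median -1.48). The 5 higher were Thy1, Pi16 (2.44 ± 0.25), the ectoenzyme Nt5e (1.34 ± 0.41), the hyaluronan receptor Cd44 (1.32 ± 0.25) and Ly6a, which encodes Sca-1 (1.04 ± 0.24), and lymphocytes are known to express Thy1, Nt5e, Cd44 and Ly6a. Among the 9 lower members were the adhesion molecule Alcam (-2.94 ± 0.18), Cd34 (-2.43 ± 0.29) and Pdgfra. Hgf, a growth factor of hepatocytes that stromal cells secrete, was lower too, at -2.76 ± 0.18. These differences lie within treated mice and do not show an effect of the treatment. Set against the same contrast after PBS, the difference of the markers was lower after ADSC in 15 of 15 (median -0.32). Over all tested genes 51.9% were lower. At an unadjusted limma p under 0.05 stood 1 of the 15 markers, against 10.1% of all genes.

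Endothelial genes were lower in 12 of 17 cases and higher in 2 (median -1.73). The sinusoidal lectin Clec4g had levels of -1.30, 0.86, 0.09 and 0.94 against 2.61, 2.89, 3.60 and 3.77, a difference of -3.07 ± 0.49, the receptor Tie1 differed by -3.02 ± 0.62, and by -2.33 without array 7 of the fraction, and the scavenger receptor Stab2 by -1.83 ± 0.21. The Fc receptor Fcgr2b was higher (0.98 ± 0.23). Pecam1, shared by platelets and leukocytes, was higher at 0.56 ± 0.19, lost its limma call without liver array 8 or 9 (adjusted p of 0.0607 and 0.0541) and was lower with median centring (-0.21). Of 12 bile duct genes 4 were higher and 6 lower. The stem cell antigen Prom1 differed by -4.35 ± 0.53, the keratin Krt19 did not pass (-0.90 ± 0.38; called at -1.24 without array 10 of the fraction), and the chloride channel Cftr, higher at 3.04 ± 0.82, had uneven levels of -1.69, 3.15, 0.56 and 0.25.

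In the axis of transforming growth factor beta, the main fibrogenic cytokine, 7 of 16 genes were higher and 5 lower (median 0.43, and -0.35 with median centring). These counts lie near the shares of all genes tested, 43.9% higher and 36.3% lower. The ligand Tgfb1 was higher (1.40 ± 0.27) and the ligand Tgfb3 lower (-1.20 ± 0.18). The receptor Tgfbr1 (-1.37 ± 0.19), the matrix-bound regulator Ltbp2 (-3.93 ± 0.34) and the target Ccn2 (-2.70 ± 0.45) were lower. Ltbp1 was higher by its brightest probe, at least 4.87-fold, and its other probe differed by -2.93.

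Transcripts of tissues other than liver and of red cells were present in the fraction at levels that varied strongly between its arrays. Of 15 tested digestive enzymes of the exocrine pancreas 12 were higher and 0 lower (median 6.74). Above background in both groups were 7 of the 15. The carboxypeptidase Cpa1 had levels of -0.70, 1.51, 2.23 and 9.58 on arrays 7 to 10 of the fraction and -5.70, -5.65, -4.81 and -5.09 in liver. Every one of the 15 enzymes was highest on array 10, and the mean of the list was -1.32, 0.35, 1.09 and 8.40 on arrays 7 to 10 against -3.79 to -3.62 in liver. Without array 10 the same number, 12 of 15, was called and the median was 4.47. No liver array showed Cpa1 well above background, and with all arrays it was at least 99.6-fold higher in the fraction. With slide in the fit Cpa1, Cela3b, Prss3, Clps and Sycn were no longer called. Cross-hybridisation among the trypsins Prss2, Prss3 and Try5 is possible, as their sequences are alike.

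Genes of the islets did not follow the enzymes across arrays. All 6 tested islet genes were higher (median 3.96, and 1.47 with normexp and quantile normalization). Of these, 1 was above background in both groups, and a gene seen in the fraction alone was bound to be higher. Ins2, an insulin gene, had levels of 0.08, 2.40, 1.02 and 0.50, at least 22.4-fold above liver. Array 8 had the highest level of Ins1, Ins2, Ppy and Iapp, while array 10, highest for the enzymes, did not. Red cell genes had yet another pattern: 6 of 7 were higher (median 4.32), and array 7 was the lowest. Slc4a1, the anion exchanger of red cells, had levels of 0.40, 3.93, 4.76 and 4.86 against -3.07, -4.39, -3.43 and -3.16, a difference of 7.00 ± 0.89 and 8.03 without array 7. The haem synthesis enzyme Alas2 had levels of 4.59, 8.76, 8.90 and 8.25 and the globin Hba-a1, with a near-identical copy, of 9.92, 11.89, 11.29 and 11.20. Krt2, a keratin, was also lowest on array 7, at 0.44 against 6.12, 4.09 and 3.39. The share of RNA from pancreas or red cells in the other differences was not tested.

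**Figure D4:**
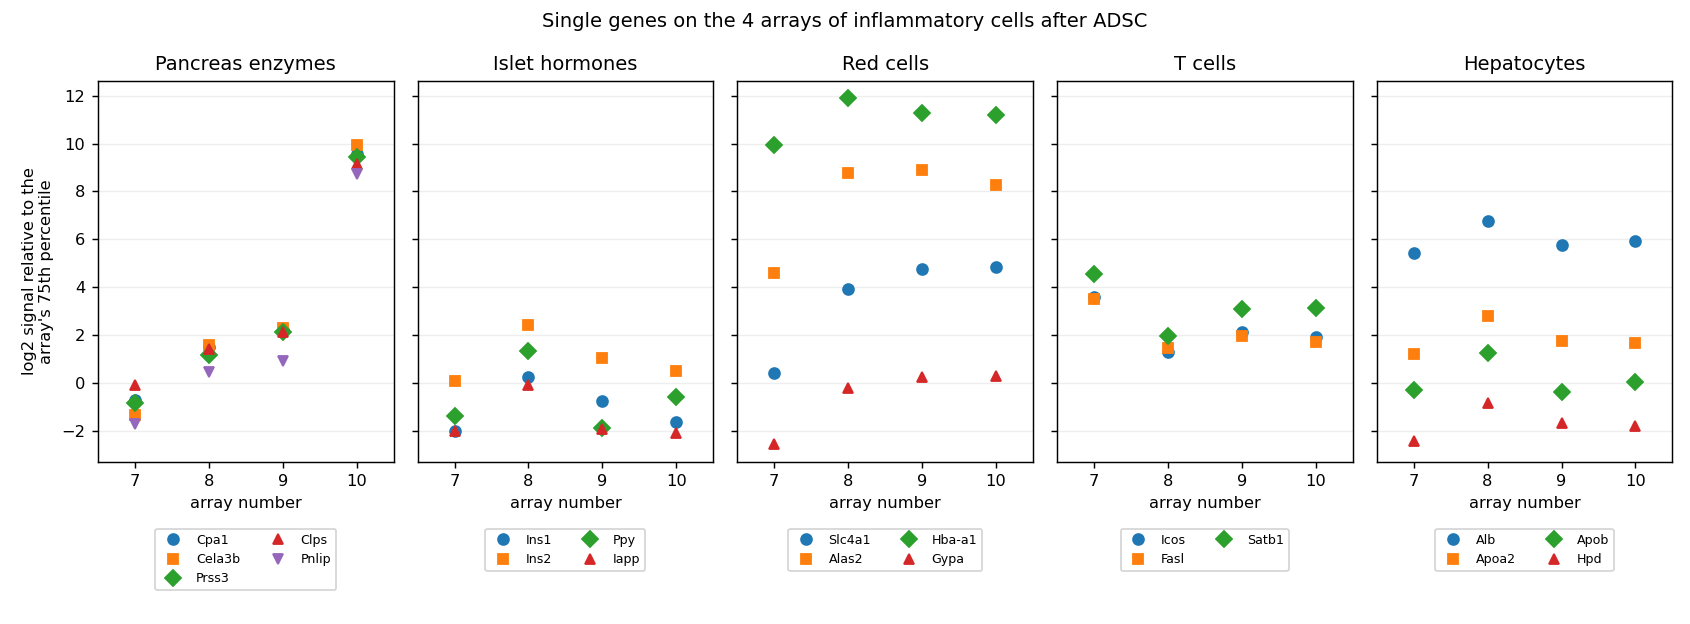
Levels of single genes on arrays 7 to 10 of the inflammatory cells after ADSC, on the same log2 scale; each symbol is 1 gene. Pancreas enzymes peak on array 10 (Cpa1, 9.58), islet hormones and hepatocyte genes on array 8, T cell genes on array 7, and red cell genes are lowest on array 7 (Slc4a1, 0.40).

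Genes of general cell function differed less. All 21 tested genes of oxidative phosphorylation were lower (median -1.82), with the respiratory chain subunit Ndufa4 at -2.51 ± 0.18 and the complex II subunit Sdhc at -2.38 ± 0.15. Of 20 ribosomal protein genes 18 were higher (median 0.91), but only 2 with median centring, so their direction depends on the scale. Of 15 iron and haem genes 12 were lower and 1 higher, with the liver hormone hepcidin, Hamp, at -5.42 ± 0.31, transferrin, Trf, at -5.24 ± 0.38, and the haem-degrading enzyme Hmox1 higher at 1.23 ± 0.19. Of 14 leukocyte integrin and selectin genes 10 were higher (median 1.48), among them the selectin ligand Selplg (2.89 ± 0.17), and the endothelial ligand Vcam1 was lower (-2.34 ± 0.23). All 4 platelet genes were higher (median 2.04), with Pf4 at 2.22 ± 0.31.

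Interferon response and apoptosis genes had medians near that of all genes (0.20), and cell cycle genes had a higher one. Of 18 interferon response genes 8 were higher and 4 lower (median 0.10), and 4 and 10 with median centring (median -0.67); with slide or scan day in the fit the median was -0.11. Ifng itself stood among the largest differences. Cxcl10 had levels of 4.56, 4.81, 5.04 and 5.18 against 2.15, 2.18, 2.89 and 1.91 (2.61 ± 0.24), Rsad2 differed by 3.69 ± 0.82 with its lowest value on array 7 (4.53 without it, and 1.86 and not called with slide or scan day in the fit), and Usp18 was lower (-1.51 ± 0.19). Of 15 apoptosis genes 6 were higher and 3 lower (median 0.33), and 4 and 6 with median centring (median -0.44), led by Fasl and the stress-induced killer gene Pmaip1 (5.00 ± 0.19). Of 21 cell cycle genes 12 were higher and 2 lower (median 0.71, and -0.06 with median centring). The cyclin Ccnb1 differed by 2.19 ± 0.29 and the thymidylate enzyme Tyms by -0.96 ± 0.13.

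The same contrast after PBS, on the other 8 arrays, was used to see what in this description belongs to the treated mice. Across the 20051 genes the 2 contrasts had a Pearson correlation of 0.968, a description across genes that are not independent replicates, and 18598 genes had the same sign (92.8%). The difference between the contrasts was tested in 1 fit of all 16 arrays over 22139 genes. In it, 7 genes passed (0.0316%), each with its value lower in the treated mice, and at an unadjusted p under 0.05 there were 2234 (10.1%), 762 of them higher (3.44%) and 1472 lower (6.65%). None of the 7 was called with the slide or the scan day in the fit, so these calls rest on the fit without them. In simulated data the test recovered 67 of 100 genes changed by 2 on the log2 scale and 6 of 100 changed by 1. The small number of calls therefore does not show that the contrasts were alike.

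Prdx5, an antioxidant peroxiredoxin, had levels of 3.47, 3.67, 3.43 and 3.42 in the fraction after ADSC and 5.19, 5.58, 5.47 and 4.75 after PBS, with liver at 3.88, 4.16, 4.20 and 4.10 after ADSC, so that the fraction was below liver after ADSC (-0.59) and above it after PBS (1.17). The difference was -1.76 ± 0.25 (limma adjusted p = 0.0272). Dstn, which severs actin filaments, had levels of 1.32, 1.56, 1.16 and 1.75 in the fraction after ADSC and 3.39, 4.22, 3.62 and 2.85 after PBS, a difference of -2.11 ± 0.33 (limma adjusted p = 0.0367). In both genes the 4 arrays of the fraction after ADSC lay below the 4 after PBS. Cdk1, the mitotic kinase, differed by -2.35 ± 0.38 (limma adjusted p = 0.0487), Ppp1r42 by -3.92 ± 0.59, Mfsd7a by -2.04 ± 0.28 and Smim5 by -1.96 ± 0.30. Ppp1r42 and Mfsd7a were not well above background in the fraction after ADSC, so their sizes are fitted values and not measured on both sides. No gene passed with a higher value after ADSC; the smallest p there belonged to Pla2g2d, a phospholipase of dendritic cells (1.71, unadjusted p = 0.00023).

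By lists, the median of the difference between the contrasts was below -0.5 for exocrine pancreas (-2.80, lower in 15 of 15 genes), cell cycle (-1.09, 21 of 21), Kupffer cell (-0.97, 10 of 12), monocyte and macrophage (-0.96, 18 of 18), islet (-0.90, 6 of 6), NK cell receptor (-0.67, 14 of 16) and oxidative phosphorylation genes (-0.59, 21 of 21), against 51.9% of all tested genes that were lower. At an unadjusted p under 0.05 stood 12 of the 21 cell cycle genes, 11 of the 18 monocyte and macrophage genes, 6 of the 21 oxidative phosphorylation genes, 4 of the 12 Kupffer cell genes, 3 of the 16 NK cell receptors, 0 of the 15 pancreas enzymes and 0 of the 6 islet genes, against 10.1% of all genes. It was above 0.5 for erythroid (0.93), plasma cell (0.92), plasma protein (0.81), MHC class II (0.80, lower in 0 of 9), B cell (0.76, lower in 0 of 15) and platelet genes (0.57). Of these, 6 of the 9 MHC class II genes, 4 of the 19 plasma proteins, 2 of the 15 B cell genes, 2 of the 7 erythroid genes, 1 of the 7 plasma cell genes and 1 of the 4 platelet genes had an unadjusted p under 0.05. Arrays that stand apart in the fraction, 10 for pancreas, 7 for red cells and 8 for hepatocyte genes, enter these medians. Scan days were also uneven between the treatments. Liver was scanned on days 1 and 2 after ADSC and on days 2 and 3 after PBS. The fraction was scanned on days 2 and 3 after ADSC and on days 1, 2 and 3 after PBS. These medians and shares come from the fit without slide or scan day.

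**Figure D5:**
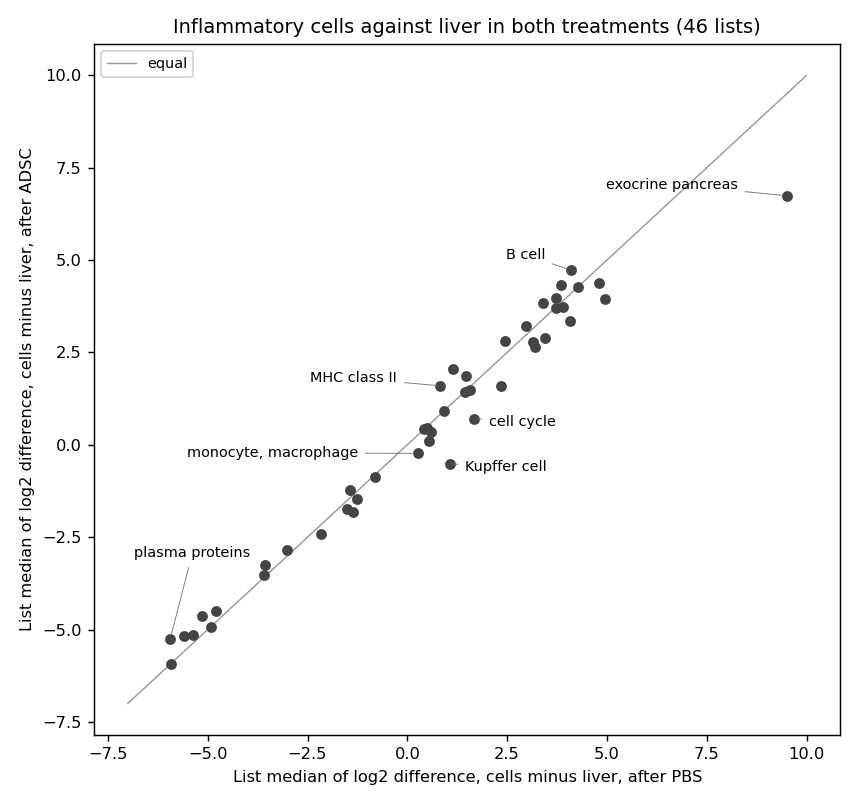
Median log2 difference, inflammatory cells minus liver, of 46 gene lists after PBS (horizontal axis) and after ADSC (vertical axis), with a line where both are equal. Most lists lie near the line, while exocrine pancreas (9.50 and 6.74), cell cycle (1.68 and 0.71) and Kupffer cell genes (1.08 and -0.52) lie below it.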

How the data were processed

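Total RNA labelled with Cy3 was hybridised to 1-colour Agilent arrays, 4 per group. Each scanner file holds the processed signal, an intensity that Agilent Feature Extraction 10.5.1.1 had background-subtracted, per the file headers, with no scaling between arrays; the deposited value table holds the same intensities. Control and outlier spots were left out, spots of a probe were averaged, and log2 signals had the array's 75th percentile subtracted. Symbols came from RefSeq (GRCm38.p6) by accession and named 23374 of 41174 probes with 16535 symbols; a gene was represented by its brightest probe over the 16 arrays. Groups were compared with limma 3.58.1 in R 4.3.3 (lmFit, eBayes, Benjamini-Hochberg adjustment). The script was checked on simulated data of 22109 genes, with 100 changed by 2 on the log2 scale and 100 changed by 1. In the contrast after ADSC 74 and 8 of them were recovered, and in the difference between ADSC and PBS 67 and 6. Far more genes were called in the real contrast after ADSC than were changed there. The other normalization used the median spot and median background intensities, deposited per the file headers, since no mean signal is in the files. The file of inflammatory cell array 9 carries 3 significant digits. The number of arrays limits the precision. Named were the 10 largest and 10 smallest differences measured in both groups and the 5 largest bounds each way. Also named were the 3 largest differences of each list with members against its direction, and marker genes. Genes described as named after their values were seen, or shown for their promoter, fall outside this rule. In it, measured in both groups means well above background on at least 1 array of each, so some of these differences include dim signals. Some results are not reported here. Members and lists were chosen with earlier results of these data known.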

Additional observations from a re-analysis of the deposited data

Results flagged for a closer look

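Values of an array far from the other 3 of its group were looked for in 92 groups of list means, where chance gives about 1 in 20. In 6 of them an array stood apart. On array 8 of the inflammatory cells the mean level of MHC class II genes was 3.44 (others 3.98 to 4.06), that of acute phase proteins 0.80 (others -0.04 to 0.04) and that of heat shock genes 4.64 (others 5.12 to 5.16). On array 7 of the inflammatory cells the mean level of erythroid genes was 2.01 (others 3.83 to 4.02). On liver array 7 the mean level of monocyte and macrophage genes was 2.95 (others 2.24 to 2.35) and that of bile acid genes 2.56 (others 3.19 to 3.31).

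The contrast of inflammatory cells with liver differed between ADSC and PBS, by the test of the difference itself, in 7 genes: BC049694, a transcript without a symbol here (-2.76), Cdk1 (-2.35), Dstn (-2.11), Mfsd7a (-2.04), Ppp1r42 (-3.92), Prdx5 (-1.76) and Smim5 (-1.96). The transcript BC049694 had levels of -0.98, -1.18, -1.02 and -1.42 in the fraction after ADSC and 0.48, 1.74, 0.84 and 0.44 after PBS.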

How the results depend on the processing

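With any 1 of the 8 arrays left out, 15401 to 16486 genes were called against 16072 with all, 4820 to 4958 at least 4-fold higher and 2553 to 2699 at least 4-fold lower. Genes at least 4-fold lower numbered 4572 with median centring; genes at least 4-fold higher and lower numbered 1412 and 1324 with normexp and quantile normalization and 1470 and 1497 with normexp and the 75th percentile (the cause was not tested). Without a filter on dim probes 14265 genes were higher; with a filter for every array 10461 were called, 4886 higher, 1572 and 1576 at least 4-fold higher and lower. The sign of 14809 of 16072 called genes (92.1%) was the same in all 5 scalings. Of 222 named results 172 kept their call, passed or not passed, under every alternative. Apart from 7 genes that reversed in direction, the others gained or lost a call under at least 1 alternative. The reversals with the mean of probes were Klf2 (1.91), Ehf (-0.87), Ltbp1 (-0.10), Cdk1 (0.33) and Adgre1 (0.24), where probes of a gene disagree. With median centring they were Sqle (-0.31) and Pecam1 (-0.21), and with normexp and the 75th percentile Cdk1 (0.12). The medians of 40 of 46 lists kept their sign, but sizes moved: with normexp and quantile normalization the median of mast cell genes was 1.21 in place of 4.38, of NK cell receptors 1.34 in place of 3.35, of T helper genes 1.55 in place of 3.71 and of cytokines 1.65 in place of 3.85.

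The difference between ADSC and PBS (7 genes, all lower) gave 1 gene, lower, with the percentile over detected probes; 74 with normexp and quantile normalization (18 higher, 56 lower); 0 with no filter, with slide, with scan day and with the replicate block; 64, all lower, with the filter for every array; and 914 with array weights (325 higher, 589 lower); the cause was not tested. Leaving out 1 of the 16 arrays gave 0 to 47 genes, 0 to 6 higher and 0 to 46 lower: 47 without inflammatory cells PBS 14, 20 without inflammatory cells ADSC 7 and 14 without inflammatory cells PBS 11. Numbers 7 to 10 are shared between liver and fraction, and deviations of arrays with the same number correlated at 0.08, 0.11, 0.05 and -0.02, so the numbers were not taken to pair samples; with the array number as a replicate block 15794 genes were called, 8695 higher and 7099 lower. Scan day 2 alone, chosen after seeing the data, called 11656 genes. Dim probes limit folds to bounds for 2354 higher and 739 lower genes.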
